A study of Mus musculus with 18 samples.

Results

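The 9 genes described here, Pdk4, Acot1, Acot2, Plin5, Ucp3, Angptl4, Cpt1a, Cpt1b and Klf15, belong to the fatty acid programme that peroxisome proliferator-activated receptors (PPARs) and their partners control in the heart. They were taken from 35808 genes counted in single cells of mouse hearts, and they were chosen for high levels in cardiomyocytes (CMs) at postnatal day P14, when pups still suckle, against P4 and P28. Their levels in CMs at these stages are therefore given as a description, and how many of them pass the threshold of the fit over all genes there is not used as evidence. Tests are given for these genes in hearts that received a hairpin against Jun and in cells other than CMs, and for other genes of the pathway.

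All mice were of the Myh6/Esr1-Tomato strain, in which a tamoxifen-dependent Cre under the CM promoter of Myh6 switches on a tdTomato reporter, and per the study's methods tamoxifen was fed to the mothers after delivery. Wild-type hearts without a knockdown gave 2 libraries each at P4, P7 and P14 and 6 at P28. A further 6 libraries came from P28 hearts that had been injected at P1, at several points of the left anterior ventricle, with lentivirus carrying a hairpin against Jun (shJun) or a non-targeting hairpin (shNT). Each of these libraries held cells of both hairpins, and the deposited well tables named 4 animals, 2 for each hairpin. Lentivirus reaches only part of the injected ventricle, and whether a given cell was infected was not measured. Cells were dispensed into nanowells, imaged and counted by unique molecular identifiers (UMIs), each standing for a captured RNA molecule. P4 and P7 hearts were digested as minced pieces with a kit, whereas P14 and P28 hearts were perfused, so that digestion changed together with age between P7 and P14.

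The heart at birth burns mainly glucose and lactate, and during suckling, on fat-rich milk, it comes to rely on fatty acids. Fatty acids bind the receptor PPARα, which pairs with retinoid X receptors, recruits the coactivator PGC-1α and switches on genes for uptake, storage and oxidation of fat. Pdk4 encodes a kinase that shuts the pyruvate dehydrogenase complex and so spares glucose, Cpt1a and Cpt1b encode the gatekeeper enzymes that let long-chain fatty acids into mitochondria, Acot1 and Acot2 encode a cytosolic and a mitochondrial enzyme that split acyl-CoA, Plin5 coats lipid droplets at mitochondria, Ucp3 is an uncoupling-type carrier of the inner mitochondrial membrane, Angptl4 is secreted and inhibits lipoprotein lipase, and Klf15 is a transcription factor of fasting and lipid metabolism that glucocorticoids induce.

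In the mm10 assembly (GRCm38, GENCODE vM21 annotation) Pdk4 lies at chr6:5483351-5496309 and Klf15 at chr6:90462576-90475238, on the minus and the plus strand. Acot2 (chr12:83987861-83993873) and Acot1 (chr12:84009490-84018371) are neighbours on the plus strand. Of the 50-base stretches of the main Acot1 transcript, 23.9% also occur in that of Acot2, so that reads of these stretches cannot be assigned to one of the pair with certainty. Angptl4 (chr17:33773750-33781830) and Plin5 (chr17:56111601-56117596) are on the minus strand, Ucp3 (chr7:100472990-100486432) and Cpt1a (chr19:3322334-3385733) on the plus strand. Ucp3 overlaps an antisense gene. Cpt1b (chr15:89416405-89425863, minus strand) shares 2744 of its 3372 exon bases, 81.4%, with the annotated gene Gm44502 on the same strand, and only 105 UMIs were assigned to Cpt1b in all wells. Cpt1b could thus not be measured in these files, although it is the muscle form of the enzyme.

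Promoters were available from RefSeq (GRCm38.p6) for 7 of the 9 genes, all except Angptl4 and Cpt1b, as the 250 bases before the start. They are shown for 5 genes to set the receptors' known recognition letters beside the genes whose levels follow. The letters searched on both strands were the nuclear receptor site AGGTCA, the PPAR-type direct repeat (AGGTCA, any 1 base, AGGTCA), the palindrome of the glucocorticoid receptor (AGAACA, any 3 bases, TGTTCT) and the E-box CACGTG, which clock factors bind. Capitals mark AGGTCA, its reverse complement TGACCT or the E-box. RefSeq starts can differ from those of the GENCODE genes.
Pdk4 (chr6:5496279-5496528, minus strand): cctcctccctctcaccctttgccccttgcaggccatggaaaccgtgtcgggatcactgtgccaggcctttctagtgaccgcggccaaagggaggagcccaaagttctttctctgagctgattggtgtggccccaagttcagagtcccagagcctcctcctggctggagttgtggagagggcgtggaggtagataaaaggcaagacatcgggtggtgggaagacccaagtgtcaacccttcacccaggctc
Klf15 (chr6:90462326-90462575, plus strand): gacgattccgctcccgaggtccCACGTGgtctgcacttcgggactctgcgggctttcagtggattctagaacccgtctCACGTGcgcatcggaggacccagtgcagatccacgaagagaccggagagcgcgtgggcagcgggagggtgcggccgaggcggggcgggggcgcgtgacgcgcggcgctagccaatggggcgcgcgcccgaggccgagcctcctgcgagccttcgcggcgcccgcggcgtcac
Ucp3 (chr7:100472741-100472990, plus strand): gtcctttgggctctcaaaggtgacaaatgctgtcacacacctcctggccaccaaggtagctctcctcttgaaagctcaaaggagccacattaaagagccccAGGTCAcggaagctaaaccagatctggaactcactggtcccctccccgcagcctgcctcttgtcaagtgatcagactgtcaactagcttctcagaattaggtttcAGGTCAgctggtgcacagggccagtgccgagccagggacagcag
Plin5 (chr17:56117549-56117798, minus strand): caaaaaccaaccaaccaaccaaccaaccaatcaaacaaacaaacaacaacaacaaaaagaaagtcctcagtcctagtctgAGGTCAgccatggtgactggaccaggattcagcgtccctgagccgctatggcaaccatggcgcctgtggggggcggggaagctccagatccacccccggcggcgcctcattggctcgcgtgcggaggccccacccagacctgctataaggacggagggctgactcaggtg
Cpt1a (chr19:3323051-3323300, plus strand): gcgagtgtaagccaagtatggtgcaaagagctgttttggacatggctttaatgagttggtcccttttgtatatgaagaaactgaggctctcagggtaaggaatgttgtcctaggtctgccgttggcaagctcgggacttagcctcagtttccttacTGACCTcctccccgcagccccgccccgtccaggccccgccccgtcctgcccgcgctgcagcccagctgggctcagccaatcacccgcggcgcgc

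The site AGGTCA occurred 149 and 44 bases before the start in Ucp3, 170 bases before it in Plin5 and, on the other strand, 94 bases before it in Cpt1a. It occurs in 14.0% of all 32536 such windows. A second RefSeq window of Plin5 (chr17:56117299-56117548, minus strand), not printed above, held none of the searched letters. Klf15 held the E-box at 228 and 172 bases, a motif of 6.04% of windows. The full PPAR-type repeat was in no window of the 7 genes and in 0.0338% of all windows, and the glucocorticoid palindrome was in none of theirs and in 0.00922% of all. These counts say only which letters stand in these windows.

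Of 23475 cells, 19851 passed the filters on genes and UMIs. CM-like cells, clusters named from Tnnt2, Actc1, Myl3, Tnnc1, Mybpc3, Ttn, Ryr2 and Pln after the 9 genes and their pathway had been left out of clustering, numbered 492 at P14, 310 at P4, 2203 at P28, 39 at P7 and 3232 in the knockdown set. Their UMIs were summed per library, and sums of at least 20 cells were used, which left 2 sums at P14, 2 at P4, 3 at P28 (replicates 1, 3 and 5) and 1 at P7. The P28 chips differed in makeup, with 940, 566 and 678 CM-like cells in these 3 and 5 to 8 in the other 3, whereas each P4 and P14 chip held CM-like and other cells together. Levels are given in CPM, the usual unit of a gene's share of the library, here of the UMIs of nuclear genes and after trimmed-mean (TMM) scaling. The sums held between 1229390 UMIs, at P7, and 20414270, at P28. Each sum is 1 chip. Both P4 chips carry the same animal names, and the wells at P14 are named only by cell fraction, so p-values measure the spread between these chips, which may be technical, and chip and stage cannot be told apart.

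The P14 sums differed from those of P4 in several measures of quality. Genes of mitochondrial DNA took 79.1 and 71.2% of all UMIs at P14, against 20.3 and 20.03% at P4 and 50.01 to 70.9% at P28, and 3 mitochondrial pseudogenes took 33.9 and 26.1% of the nuclear UMIs, against 2.15 to 2.78% at P4 and 3.16 to 20.4% at P28. Globin transcripts reached 100994 CPM in P14 replicate 1 and 4160 in replicate 2, against 230 and 373 at P4 and 4772 to 33750 at P28, so that replicate 2 was below every P28 sum. The 8 CM markers summed to 29046 and 39690 CPM at P14, 46920 and 49305 at P4 and 31522 to 48433 at P28. Of the 310 P4 cells, 204 were in a cluster led by the atrial genes Sln, Myl7 and Nppa, and of the P28 cells 327, 89 and 204 in the 3 sums were in CM-like clusters led by endothelial or immune genes. Markers of fat cells, a cell type rich in several of these transcripts, summed to at most 10.5 CPM in the stage sums, and Adipoq to at most 1.76. The part of these differences in the levels that follow was not tested.

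Among the stage sums, Pdk4 stood out at P14. Its level was 516 and 697 CPM in the 2 P14 sums, 74.2 and 33.4 at P4, 44.2 at P7, and 41.6, 55.7 and 157 at P28. The P14 values were above every other stage sum, and the order of P28, P4 and P7 rested on overlapping values. In the P28 hearts given shNT, scaled in a separate fit, Pdk4 was at 120 and 603 CPM in animals 1 and 2. Animal 2 thus lay between the P14 values. The mean at P14 was 607 ± 127 CPM (SD, n = 2), 11.3 times that at P4 and 7.16 times that at P28. The fitted log2 difference was 3.497 ± 0.65 (SE) against P4 and 2.84 ± 0.54 against P28.

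Plin5 and Acot2 were also highest at P14 among the stage sums, without overlap. Plin5 was at 99.6 and 247 CPM at P14, 32.1 and 43.1 at P4, 61.8 at P7, and 32.8, 41.3 and 41.7 at P28, a log2 difference of 2.20 ± 0.52 against P4 and 2.16 ± 0.46 against P28. Acot2 was at 85.8 and 153 CPM at P14, 55.3 and 51.4 at P4, 17.6 at P7, and 30.3, 39.7 and 21.4 at P28, with log2 differences of 1.16 ± 0.50 and 1.97 ± 0.45. For both genes replicate 2 at P14 was well above replicate 1. In shNT animals 1 and 2, at P28, Plin5 was at 169 and 223 CPM, within the range of P14. Acot2 was at 59.96 and 82.2 there, below both P14 sums.

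Acot1 and Ucp3 differed mainly from the P28 stage sums. Acot1 was at 19.5 and 85.5 CPM at P14, which enclosed the 51.5 and 37.4 of P4 and the 31.9 of P7, and at 3.57, 3.605 and 3.92 at P28. The log2 difference was 3.82 ± 0.60 against P28 and 0.24 ± 0.62 against P4, the latter smaller than its error. Ucp3 was at 19.2 and 33.3 CPM at P14, 13.1 and 18.0 at P4, 25.4 at P7, and 3.31, 5.41 and 2.14 at P28, with log2 differences of 2.83 ± 0.63 against P28 and 0.75 ± 0.68 against P4. Neither gene separated P14 from P7. In shNT animals 1 and 2, at P28, Acot1 was at 20.8 and 56.2 CPM and Ucp3 at 7.74 and 21.1, which overlapped P14.

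Klf15 differed in the opposite way, from P4. It was at 16.5 and 34.2 CPM at P14, 1.72 and 2.07 at P4 and 14.9, 14.4 and 14.6 at P28, and no UMI was counted in the P7 sum, where 3 UMIs would be 1.95 CPM. The log2 difference was 3.73 ± 0.77 against P4 and 0.79 ± 0.62 against P28. The values rested on 49 and 78 UMIs at P14 and 13 and 22 at P4.

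Angptl4 and Cpt1a did not have the pattern for which the group was named. Angptl4 was at 19.9 and 3.51 CPM at P14 and was highest at P4, with 77.2 and 69.7, against 1.66, 1.26 and 5.53 at P28 and 18.9 in the P7 sum. It was thus lower at P14 than at P4, by 2.63 ± 0.79 on the log2 scale, and higher than at P28 by 2.14 ± 0.71, where the sums overlapped. Cpt1a was at 6.06 and 34.7 CPM at P14, 3.04 and 32.6 at P4, 8.55, 11.5 and 9.81 at P28 and 36.4 at P7. Its replicates at P4 and at P14 differed more than the stages did. Cpt1b had 9 and 13 UMIs at P4, none at P7 or P14 and at most 2 at P28. The other P7 chip had 16 CM-like cells, too few for a sum, with 100 UMIs of Plin5, 90 of Cpt1a, 50 of Acot2, 38 of Angptl4 and 0 of Pdk4.

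**Figure D1:**
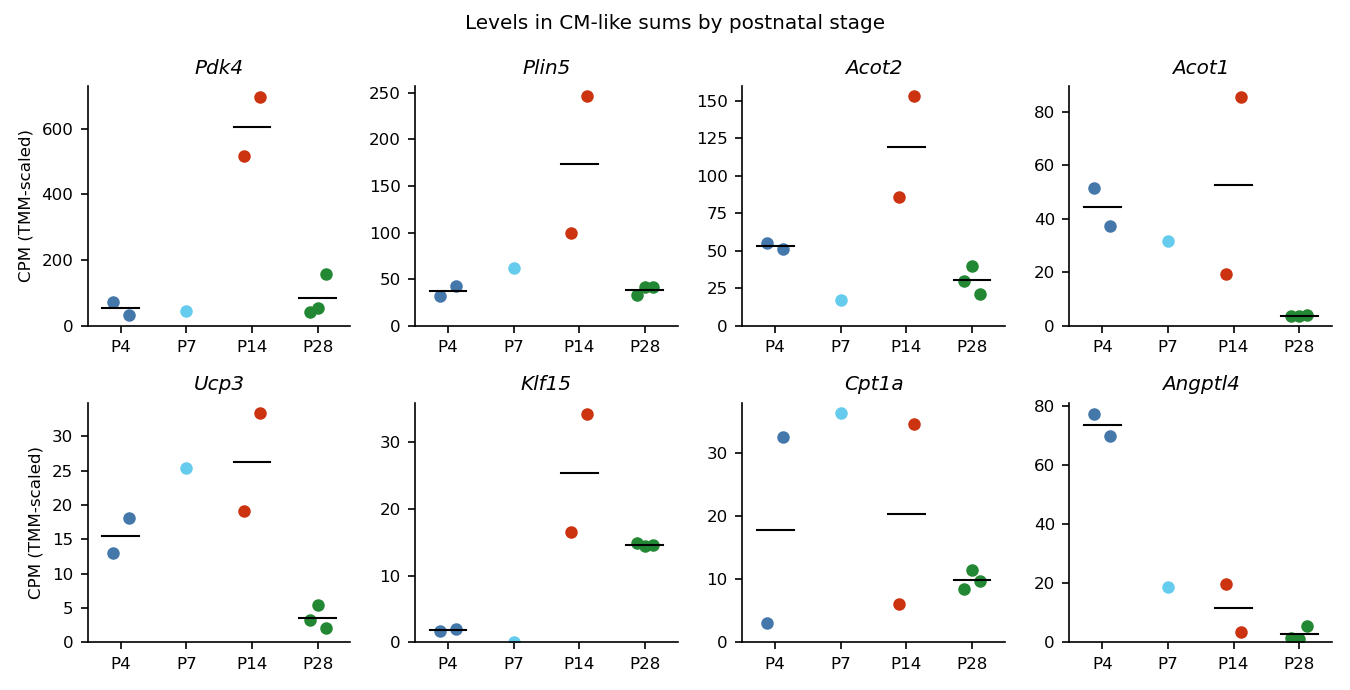
Level (CPM, TMM-scaled, linear axes from 0) of 8 genes in each sum of CM-like cells at P4, P7, P14 and P28; points are sums and bars are means. Pdk4 at P14 (516 and 697) lies above all other sums shown. Angptl4 is highest at P4 (77.2 and 69.7), and Cpt1a spreads as widely within P4 and P14 as between stages.

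Over the 8 genes that passed the filter on low counts (all but Cpt1b) the median log2 difference was 0.96 against P4 and 2.15 against P28, and over all 15835 genes tested it was -0.06 and -0.08. Against P4, 3 of the 8 (Pdk4, Plin5 and Klf15) passed the threshold higher in P14, where 1.93% of all genes did (3.36% in either direction and 1.43% lower), and 5 were higher and 1 lower without overlap, where 20.5% and 24.6% of all genes were. Against P28, 1 of the 8 (Acot1) passed, where 0.0126% did (0.0316% in either direction and 0.0189% lower), and 6 were higher without overlap, where 10.3% were. As the genes were chosen on these contrasts, the counts describe the choice. The tests used edgeR's quasi-likelihood fit of all 4 stages with Benjamini-Hochberg adjustment at 0.05.

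Scaling bore on the smaller differences. With totals in place of TMM the median of all genes moved to -0.84 against P4 and -0.68 against P28, and Acot1, Cpt1a and Ucp3 then differed from P4 by -0.50, -0.46 and 0.00 on the log2 scale. Relative to the moved median these remained positive. The calls against P4 split into 305 higher and 227 lower with TMM, and into 176 higher and 1146 lower with totals. Pdk4, Klf15, Plin5 and Acot2 were higher than at P4 and Angptl4 lower in all 15 settings tried, whereas Cpt1a was higher in 9, Acot1 in 13 and Ucp3 in 14. Without the atrial P4 cluster the difference from P4 was 2.68 for Pdk4, 3.89 for Plin5 and 0.69 for Acot2. Without P14 replicate 2 it was -1.18 for Acot1 and -1.56 for Cpt1a. Without either P4 replicate none of the 8 genes passed against P4. Without the P28 clusters led by endothelial or immune genes the members' median was 0.96 against P4 and 2.22 against P28, and 3 and 1 of them passed.

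**Figure D2:**
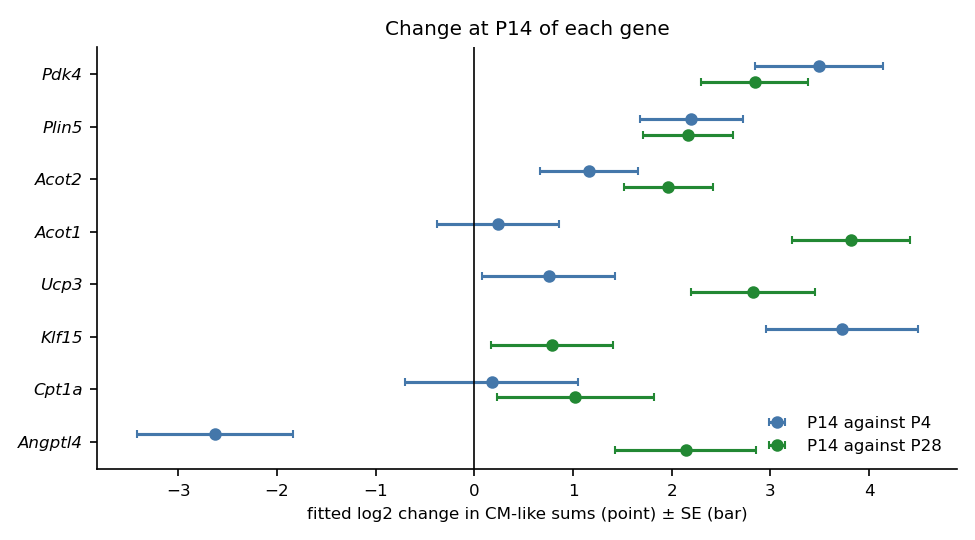
Fitted log2 difference of P14 from P4 (blue) and from P28 (green) in CM-like sums; points are estimates and bars are 1 SE. Pdk4 and Plin5 lie above 0 in both, Acot1 and Ucp3 mainly against P28, Klf15 mainly against P4, and Angptl4 has opposite signs.

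The P14 signal was spread unevenly over cells. A cluster of 39 CM-like cells, led by Kcnj3, Slc25a34, Rbm20, Smyd1 and Ttn, held 17 of the 315 cells of replicate 1 and 22 of the 177 of replicate 2. These cells were deeper, with a median of 46848 and 67830.5 UMIs against 10113 and 6859 in the other CM-like cells, and held 18.6 and 53.2% of the UMIs of their sums. They held 38.6 and 87.8% of the Pdk4 UMIs, 22.4 and 90.3% of those of Acot1, 63.2 and 90.8% of those of Ucp3 and 77.6 and 76.9% of those of Klf15. In CPM without TMM, the level of Pdk4 was 686 in the deep cells and 249 in the others of replicate 1, and 862 and 136 in replicate 2. In replicate 2 Acot1 was at 109 in the deep cells and 13.4 in the others and Cpt1a at 40.2 and 9.84, whereas in replicate 1 both differed little, 15.1 and 11.9 for Acot1 and 4.64 and 3.71 for Cpt1a. Ucp3 was at 41.7 and 5.56 in replicate 1 and 42.6 and 4.92 in replicate 2. Plin5 was spread more evenly, with 85.8 and 58.8 in replicate 1 and 220 and 145 in replicate 2. The cluster came from the same cells and counts, so these contrasts are not tests.

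**Figure D3:**
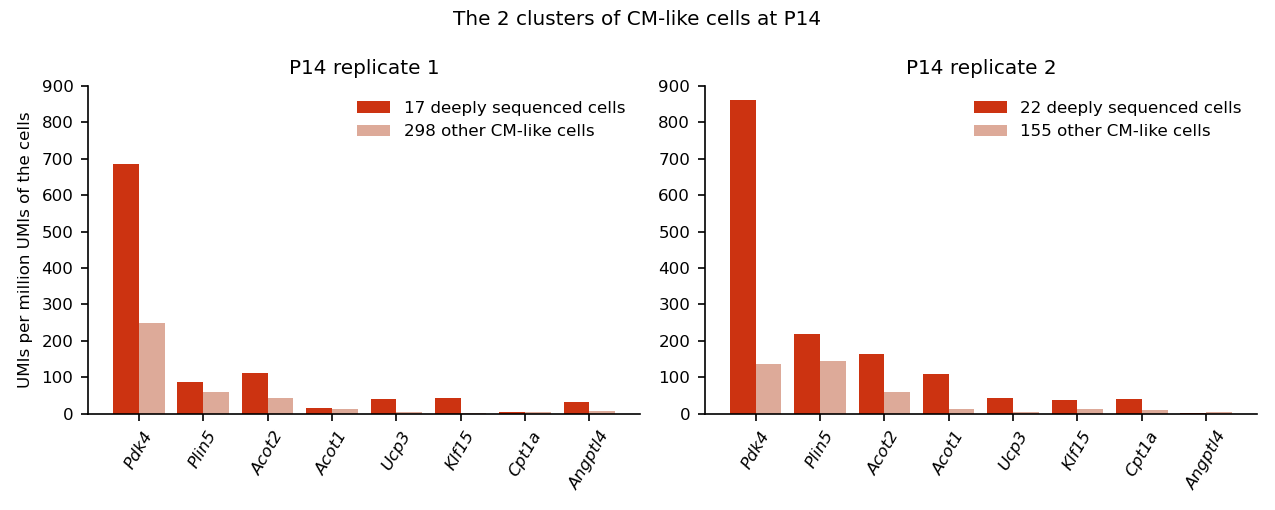
Level (CPM without TMM, linear axis) of 8 genes in the deep cluster of CM-like cells at P14 and in all other CM-like cells, by replicate. Pdk4 is higher in the deep cells in both replicates (686 against 249, and 862 against 136), while Acot1 and Cpt1a separate in replicate 2 alone.

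Depth was set equal by thinning each cell to 2000 UMIs, leaving out shallower cells (0 at P4 and P14 and 5 to 101 at P28). Pdk4 was then seen in 61 of the 315 P14 CM-like cells of replicate 1, 19.4% (15.1 to 24.2, 95% binomial interval by the exact Clopper-Pearson method), and in 26 of the 177 of replicate 2, 14.7% (9.83 to 20.8), against 5.59 and 7.19% at P4 and 5.60, 7.13 and 15.6% at P28. Unthinned, the shares at P14 were 37.1 and 30.5% at median depths of 10424 and 8030 UMIs, and at P4 27.97 and 29.9% at 21093 and 35717. In P14 macrophage-like cells, at median depths of 18490.5 and 9831, none of 42 and none of 36 thinned cells had a Pdk4 UMI, which allows shares of up to 7.14 and 8.33% of cells with a UMI at that depth, and unthinned 19.0 and 8.33% had one. The share of P28 replicate 5 was close to that of P14 replicate 2. All intervals cover counting error only. The single cell with most Pdk4 UMIs held 11.5 and 17.7% of them at P14. Of 181 control wells, 90 negative wells held 42 UMIs of the 9 genes among 51790, and 91 positive wells 13 among 52417. The P14 CM-like cells held 5261 UMIs of these genes, among 4638900 and 3040571 in the sums of replicates 1 and 2. As a share of UMIs the negative wells were thus not below the P14 CM-like cells, and the source of these UMIs was not tested.

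Receptors and coactivators did not pass the test between stages. Ppara, which encodes PPARα, was at 45.4 and 18.4 CPM at P14, 14.3 and 13.2 at P4, 5.58, 19.7 and 17.7 at P28 and 81.9 at P7 (log2 difference 1.22 ± 0.66 against P4, adjusted p = 0.327, and 1.16 ± 0.59 against P28, adjusted p = 0.547, edgeR). Its highest value was the P7 sum of 23 cells. Ppargc1a, which encodes PGC-1α, was at 371 and 149 CPM at P14, 136 and 110 at P4, 43.5, 183 and 39.9 at P28 and 159 at P7 (1.08 ± 0.65, adjusted p = 0.381, and 1.55 ± 0.58, adjusted p = 0.396). Rxra, the retinoid partner, was at 12.1 and 15.6 CPM at P4, 36.4 and 15.4 at P14 and 22.9 to 36.5 at P28. Ppard and Pparg, the other receptors of the family, were at no more than 6.01 and 15.3 CPM in any stage sum. None of the 12 genes of receptors and partners passed against P4 or P28, with medians of 0.74 and 0.09 on the log2 scale.

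The genes of the wider pathway, clock and stress lists are together called pathway genes below. Among 143 tested, 13 rose and 1 fell from P4 to P14, where 1.93% and 1.43% of all genes did. The 13 included 3 genes of the glucocorticoid list and 2 early genes of tissue dissociation. With totals in place of TMM 5 of the 143 were higher and 3 lower. The median over the 143 was then -0.22 against P4 and -0.36 against P28, in place of 0.51 and 0.23. The list with most calls was that of lipid droplets and lipolysis, with 4 of 13 genes higher. Pnpla2, the lipase that opens triglyceride breakdown, was at 14.0 and 23.9 CPM at P4, 133 at P7 and 215 and 184 at P14 (3.396 ± 0.54, adjusted p = 0.00247, edgeR). Dgat2, which makes triglyceride, rose from 24.3 and 31.8 CPM to 79.1 and 176 (2.19 ± 0.53, adjusted p = 0.0295). Plin4, a droplet coat, rose from 12.9 and 16.0 CPM to 85.8 and 42.6 (2.15 ± 0.57, adjusted p = 0.0438). The other was Lipe, the hormone-sensitive lipase, named after its values were seen, at 2.64 and 4.42 CPM at P4 and 39.7 and 20.6 at P14 (3.09 ± 0.82, adjusted p = 0.0451). At P28 Pnpla2 was at 93.3, 108 and 189 CPM and overlapped P14.

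Genes of pyruvate and glucose use, the process that Pdk4 limits, passed in 3 of 16 cases, where 3.36% of all genes passed in either direction. Mpc1, a subunit of the mitochondrial pyruvate carrier, rose from 69.0 and 14.9 CPM at P4 to 172 and 390 at P14 (2.74 ± 0.68, adjusted p = 0.0326, edgeR). Slc2a4, the insulin-responsive glucose transporter, rose from 31.0 and 27.5 CPM to 99.0 and 106 (1.81 ± 0.47, adjusted p = 0.0391). Pdk3, a sister kinase of Pdk4, fell from 26.7 and 14.0 CPM to 1.68 and 0.877 (-3.94 ± 0.98, adjusted p = 0.0333). In this list members thus moved both ways.

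For Angptl4, the partner gene Gpihbp1, which anchors lipoprotein lipase to capillaries, was at 42.4 and 83.4 CPM at P4 and 375 and 257 at P14 (2.33 ± 0.58, adjusted p = 0.0341, edgeR). Gpihbp1 is a gene of endothelial cells, whose 8 markers summed in the CM-like sums to 279 and 206 CPM at P14, 168 and 183 at P4 and 472 to 1316 at P28, and the part of their RNA was not tested. Lpl itself was at 615 and 700 CPM at P4 and 1544 and 2305 at P14 (1.55 ± 0.55, adjusted p = 0.135). Of 9 genes linked to Klf15, Bckdha, a subunit of the branched-chain keto acid dehydrogenase, rose from 10.96 and 22.6 CPM to 78.1 and 73.3 (2.17 ± 0.53, adjusted p = 0.0322).

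Of the 10 genes that glucocorticoids are known to induce, 3 passed higher at P14, where 1.93% of all genes did. Sgk1, a kinase, went from 1.72 and 5.73 CPM at P4 to 86.9 and 54.0 at P14 (4.21 ± 0.62, adjusted p = 0.00154, edgeR), Per1, which is also a clock gene, from 5.68 and 3.19 to 35.3 and 76.8 (3.66 ± 0.74, adjusted p = 0.0112), and Errfi1, a feedback inhibitor of EGF receptors, from 0.264 and 4.603 to 12.5 and 57.0 (3.78 ± 0.93, adjusted p = 0.0319). Per1 was counted in the glucocorticoid list, and none of the 16 genes of the separate clock list passed. Of 7 early genes known to respond to tissue dissociation, Fosb rose from 1.056 and 0.0939 CPM to 14.8 and 11.4 (4.55 ± 1.05, adjusted p = 0.0230) and Atf3 from 5.41 and 7.70 to 8.75 and 122 (3.31 ± 0.84, adjusted p = 0.0366). These early genes moved with stage and with the change of digestion, and their part in the levels of the other genes was not tested.

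Oxidation enzymes themselves passed in no case. Of 18 genes of mitochondrial beta-oxidation, 17 had positive differences against P4 and 16 against P28 with TMM. Their medians were 0.45 and 0.78, and those of all genes -0.06 and -0.08. Higher than P28 without overlap were 13, where 10.3% of all genes were. With totals in place of TMM, Etfb and Acaa2, the genes of highest level, turned from 0.24 and 0.19 to -0.52 and -0.59 against P4. The median of all genes was then -0.84. Acaa2, the last enzyme of the cycle, was at 843 and 963 CPM at P4, 951 and 1105 at P14 and 445, 668 and 274 at P28 (1.15 ± 0.46 against P28, adjusted p = 0.435, edgeR). Fabp3, the fatty acid carrier of the cytosol, was at 4006 and 8958 CPM at P4, 4023 and 5644 at P14 and 1200, 2025 and 1693 at P28 (1.56 ± 0.53 against P28, adjusted p = 0.360). Against P28 no pathway gene passed, while 1541 of 15835 genes had an unadjusted p under 0.05 and DESeq2 called 4 pathway genes.

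These pathway calls rested on both P4 sums. Without P4 replicate 1 no pathway gene passed against P4 and without replicate 2 3 did, and with the CM-like call made cell by cell 1 did.

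Among the genes whose profile over the 8 sums was most like the mean profile of the group (Pearson's r on log2 CPM with a pseudocount of 0.5, a description over sums that share depth and chip) were Rtn4ip1 (r = 0.974), Cpt2 (0.963), Nfu1 (0.935), Entpd5 (0.926), Slc27a1 (0.925), Mga (0.915) and Irs2 (0.913). Cpt2, which acts just after Cpt1 in the mitochondrion, was at 118 and 168 CPM at P14, 73.0 and 113 at P4, 59.2 at P7 and 48.6, 46.4 and 64.2 at P28. Slc27a1, a fatty acid transporter, was at 31.6 and 31.6 CPM at P14, 16.2 and 18.1 at P4 and 4.27, 6.61 and 8.20 at P28. Within the group, r with the mean of the other members was 0.82 for Plin5, 0.79 for Acot2, 0.73 for Ucp3, 0.70 for Acot1 and 0.58 for Pdk4, and 0.14 for Cpt1a, 0.01 for Angptl4 and -0.11 for Klf15.

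The knockdown asks whether the genes depend on Jun, which encodes an AP-1 transcription factor. Jun itself was at 24.7 and 29.4 CPM in the CM-like sums of shJun animals 1 and 2 and at 54.1 and 70.4 in those of shNT animals 1 and 2, a log2 difference of -1.20 ± 0.24. Animals with the same number shared chips, and their ratios were 0.457 and 0.417. In the fit without the pairing no gene of 17404 passed, 0% (753 at an unadjusted p under 0.05; DESeq2 called 67), and the adjusted p of Jun was 0.9998. With the pair as a block 92 genes passed, 0.529%, and the adjusted p of Jun was 0.0219 (edgeR).

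Pdk4, Acot1, Acot2, Plin5 and Angptl4 were lower with shJun within both pairs and on all 4 chips that held CM-like sums of both hairpins. In shNT animal 2, 392 cells of a cluster led by skeletal muscle genes were not named CM-like and are not in these sums, which hold 665 of its cells. With them, a setting chosen after the clusters were seen, the members' median was -0.45 in place of -0.54. Over the pathway genes it was then -0.11 in place of -0.19. Pdk4 was at 62.7 and 335 CPM in shJun animals 1 and 2 and at 120 and 603 in shNT animals 1 and 2, which overlapped as groups because both animals numbered 2 were high. The ratio of shJun to shNT was 0.521 in pair 1 and 0.555 in pair 2. The log2 difference was -0.86 ± 0.91 without the block (adjusted p = 0.9998) and -0.90 ± 0.15 with it (adjusted p = 0.0167, edgeR, 1 residual degree of freedom), and Pdk4 was the only one of the 9 genes to pass with the block, where 0.345% of all genes passed lower. A fit of 9 sums per animal and chip, with a chip block, counted chips of the same animal as separate sums. Its p-values thus do not measure the spread between animals, and there Pdk4 passed as well (-0.87, adjusted p = 0.0415, edgeR). Over 13 settings its adjusted p ranged from 0.0167 to 1. Without shNT animal 2 the difference turned to 0.72, in a fit without the pairing that set shNT animal 1 against both shJun animals.

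Acot1 was at 10.4 and 22.9 CPM with shJun and 20.8 and 56.2 with shNT, ratios of 0.4997 and 0.407 (-1.15 on the log2 scale with the block, adjusted p = 0.0678, edgeR). Without shNT animal 1 its adjusted p was 0.0187. Acot2 was at 38.3 and 57.6 CPM with shJun and 59.96 and 82.2 with shNT, with no overlap and an adjusted p of 0.295 with the block. Plin5 was at 100.01 and 169.2 CPM with shJun and 169.4 and 223 with shNT (adjusted p = 0.197 with the block). Angptl4 was at 6.60 and 33.6 CPM with shJun and 11.6 and 51.2 with shNT (adjusted p = 0.345 with the block).

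Klf15 and Ucp3 had ratios on both sides of 1, and Klf15, Ucp3 and Cpt1a were lower with shJun on 2 of 4 chips. Klf15 was at 9.22 and 25.3 CPM with shJun and 9.16 and 34.4 with shNT, and Ucp3 at 8.54 and 16.0 with shJun and 7.74 and 21.1 with shNT. Cpt1a was at 14.8 and 14.5 CPM with shJun and 16.0 and 15.7 with shNT, ratios of 0.924 and 0.925. It was 1 of 3 genes, with Acot2 and Plin5, whose groups did not overlap, where 14.5% of all genes were lower without overlap. Cpt1b stayed at or below 0.35 CPM.

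Differences between animals were larger than those between hairpins for several genes. Among shNT animals, number 2 was 5.004 times number 1 for Pdk4, 4.41 times for Angptl4 and 3.75 times for Klf15. RNA of Alb, a liver gene, was found in 662 of 665 CM-like cells of shNT animal 2 (1645 CPM without TMM), in 725 of 788 of shJun animal 2 (59.8) and in 1 of 997 of shNT animal 1, so it moved with the animal number and with the hairpin. In a cluster of 61 cells led by liver genes Alb was at 40625 and Pdk4 at 198 CPM without TMM, and scaled by Alb this would give 8.02 of the 569 CPM of Pdk4 in shNT animal 2, 4.66 of the 48.4 of Angptl4 and 2.66 of the 14.8 of Cpt1a. For Cpt1a that amount is larger than the difference between the hairpins in pair 2. Markers of fat cells summed to 60.7 CPM in shJun animal 1 and to 1.46 to 7.41 in the others.

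**Figure D4:**
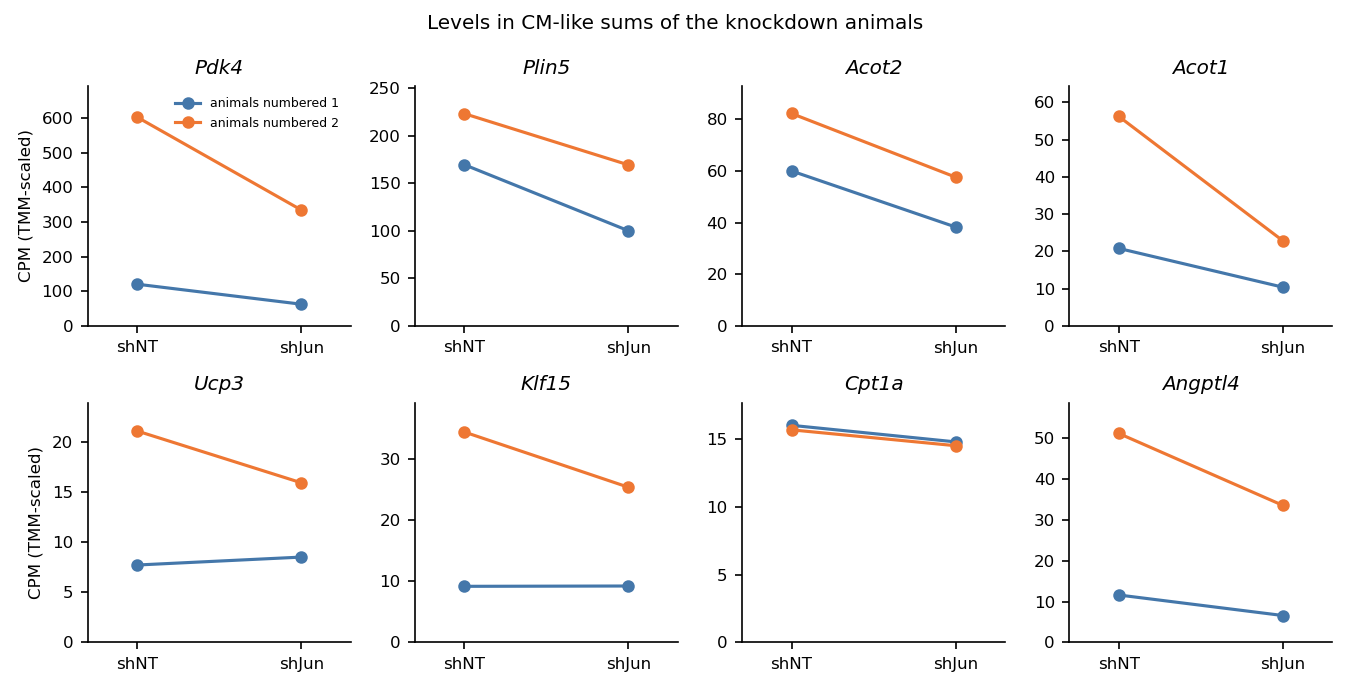
Level (CPM, TMM-scaled, linear axes from 0) of 8 genes in CM-like sums of each knockdown animal; lines join animals that shared chips. Pdk4, Plin5, Acot2, Acot1 and Angptl4 are lower in shJun than in shNT along both lines, and the animals numbered 2 are higher than those numbered 1 for Pdk4 (603 and 335 against 120 and 62.7).

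Other pathway genes mostly had lower values with shJun, and none passed in edgeR without or with the pair as a block, while 1 did in DESeq2 and 1 without a filter on low counts. Ppara was at 30.5 and 24.8 CPM with shJun and 49.0 and 36.7 with shNT (-0.63 ± 0.26, adjusted p = 0.9998 without and 0.356 with the block, edgeR), and Ppargc1a at 119 and 136 with shJun and 131 and 172 with shNT. Pnpla2 was at 210 and 169 CPM with shJun and 268 and 248 with shNT. It passed with a chip block over sums per animal and chip (-0.53, adjusted p = 0.0476, edgeR), where chips of the same animal counted as separate sums. Lpl was at 4623 and 4350 CPM with shJun and 5488 and 6486 with shNT. Of 147 pathway genes 36 had positive differences, 47 were lower and 10 higher without overlap, where 14.5% and 16.2% of all genes were, and the median was -0.19 against 0.00 over all genes. For the 9 genes the median was -0.54.

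In cells other than CMs the stage contrasts were not used in the choice and were tested. In endothelial-like cells Pdk4 was at 118 and 94.5 CPM at P14, 10.8 and 10.9 at P4, 8.62 and 7.004 at P7, and 10.6, 2.04, 2.57 and 58.1 at P28, so that P14 was above every other sum. The log2 difference was 3.29 ± 1.17 against P4 (adjusted p = 0.291, edgeR) and 2.56 ± 0.91 against P28 (adjusted p = 0.370). None of the 9 genes passed in endothelial-like cells against P4, where 0.638% of all genes did, or against P28, where 0.0709% did. Against P28, Pdk4 passed without P28 replicate 6, the highest of the P28 sums (log2 difference 4.67), and without a filter on low counts (2.64). Tnnt2, a CM transcript, was at 2230 and 2667 CPM without TMM in these P14 sums, 2671 and 3500 at P4 and 158 to 3102 at P28. In the CM-like sums it was at 7415 and 10182 at P14 and 10765 and 11775 at P4. The part of CM RNA in the Pdk4 level of endothelial-like cells was not tested. Klf15 in endothelial-like cells was at 9.51 and 3.09 CPM at P14 and 0.343 and 0.105 at P4 (4.75 ± 1.85, adjusted p = 0.344).

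The fibroblast-like and the macrophage-like class also had lower Angptl4 values at P14 than at P4, without passing the test. It was at 13.7 and 0 CPM at P14 and 52.6 and 65.8 at P4 in fibroblast-like cells (-2.90 ± 1.38, adjusted p = 0.315, edgeR), with 79.0 and 78.3 at P7 and 0.66, 1.73 and 45.8 at P28. In macrophage-like cells it was at 3.29 and 0 CPM at P14, 69.9 and 52.8 at P4 and 76.5 and 75.5 at P7 (-5.06 ± 1.47 against P4, adjusted p = 0.141), with 1.27 to 8.499 at P28. In endothelial-like cells it was at 59.4 and 33.4 CPM at P14, 73.1 and 69.3 at P4 and 86.2 and 83.8 at P7. The P4 and P7 values lay between 52.6 and 86.2 CPM in all 3 classes, a range that also held the P4 CM-like sums but not the P7 one.

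Pdk4 was low in macrophage-like cells, between 0 and 13.2 CPM in all sums, and in fibroblast-like cells 57.9 and 3.36 CPM at P14 lay on both sides of the 10.6 and 8.96 of P4. Against P4, 1.62% of all genes passed in the fibroblast-like class and 0.331% in the macrophage-like class, and against P28 0.488% and 0% did (1276 macrophage-like genes at an unadjusted p under 0.05; DESeq2 called 97). None of the 9 genes was among them. DESeq2 called 1 of the 9 lower in macrophage-like cells against P4 and 1 higher in fibroblast-like cells against P28. Without a filter on low counts 1 of the 9 was called lower in fibroblast-like cells against P4.

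**Figure D5:**
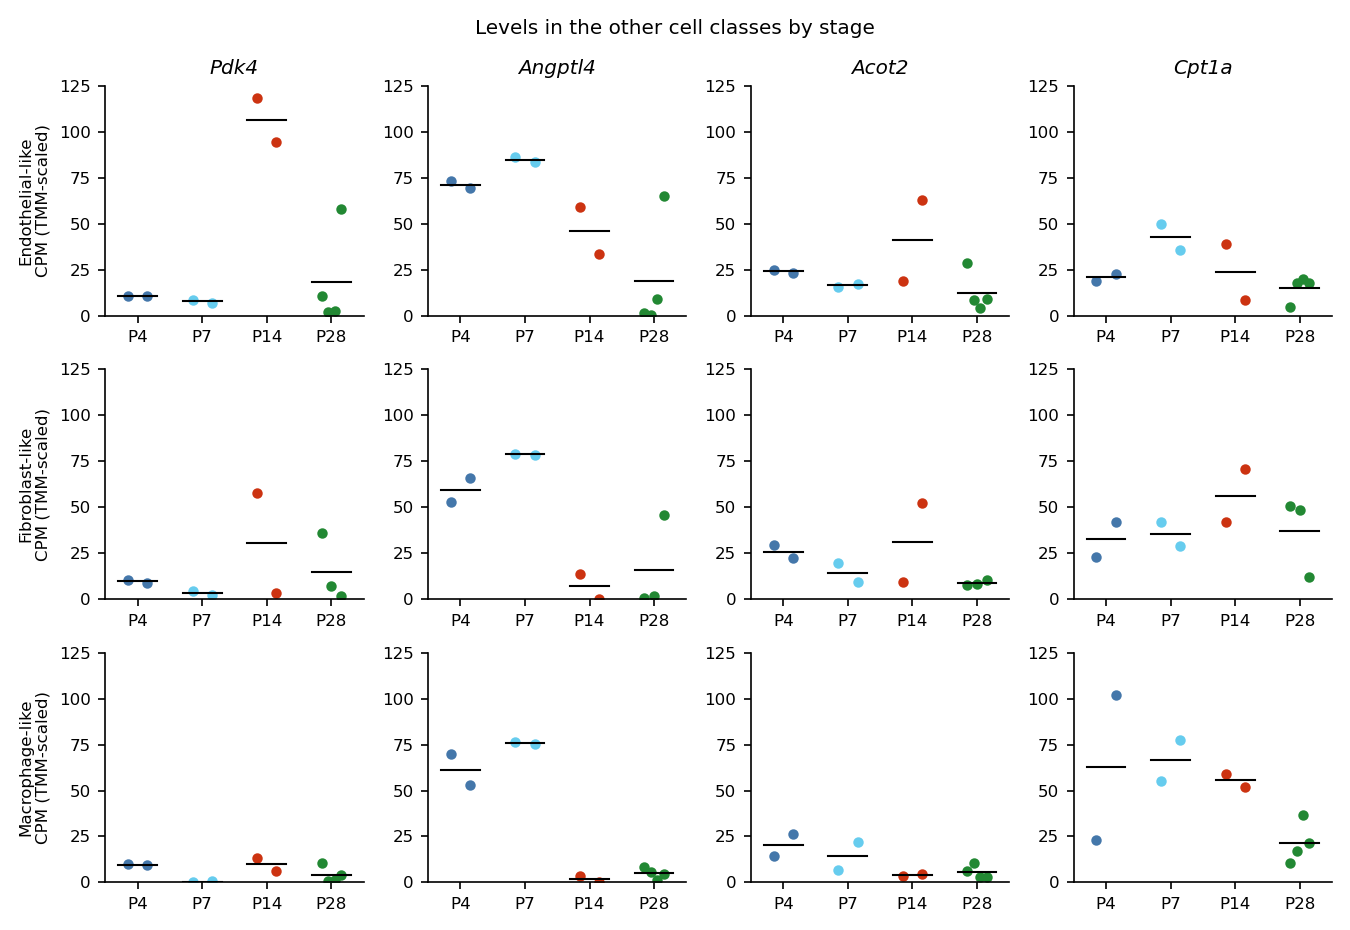
Level (CPM, TMM-scaled, linear axes from 0) of Pdk4, Angptl4, Acot2 and Cpt1a in endothelial-like, fibroblast-like and macrophage-like sums by stage; each point is a sum. Pdk4 is high at P14 in endothelial-like cells (118 and 94.5) and low in macrophage-like cells (at most 13.2), and Angptl4 is high at P4 and P7 in all 3 classes. The endothelial-like P14 sums also held the CM transcript Tnnt2 (2230 and 2667 CPM without TMM), and the part of CM RNA was not tested.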

How the data were processed

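Single-cell RNA-seq of 18 chips was analysed, 12 of wild-type and 6 of knockdown hearts. The values the authors deposited are raw UMI counts per gene and well. Per the submitters' processing notes and the study's methods, reads were aligned to mm10 with STAR 2.5.2b and assigned to Ensembl genes with featureCounts (Subread 1.4.6-p1), and wells were imaged to leave out aggregates, so no doublet caller was run. Libraries held 11160708 to 133241637 UMIs over all cells. The 9 genes and all gene lists were chosen with earlier results of these data known.

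Control wells were left out. Cells passed with at least 500 nuclear genes and a log10 UMI count within 2 SD of their group's mean (12794 of 15993 wild-type and 7057 of 7482 knockdown cells). Library sizes and tests did not use spike-ins, the reporter or 35 genes of mitochondrial DNA. Of 5051 well barcodes 4890 recur between libraries, and of 36872 pairs of passing wells that share one, 0 had identical counts. Cells were clustered per stage or knockdown animal (Python 3.11.15, leidenalg 0.10.2, igraph 0.11.9, scikit-learn 1.9.0) and named from marker lists, without the 9 genes and the pathway genes; these names are a reconstruction and need not match those the study gave. The hairpin and animal of each knockdown cell came from the deposited well tables.

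UMIs were summed per chip (stages) or animal (knockdown). Sums of at least 20 cells entered the quasi-likelihood test of edgeR 4.0.16 under R 4.3.3 (glmQLFit and glmQLFTest after TMM scaling, filterByExpr, Benjamini-Hochberg at 0.05 over all genes tested). The common dispersion was 0.338 for stages (8 sums, 4 residual degrees of freedom) and 0.203 for the knockdown (4 sums, 2 residual degrees of freedom). Knockdown animals of the same number shared chips and were treated as pairs in an alternative fit; their deviations from the group means correlated at 0.319 over 17404 genes. Alternatives were DESeq2 1.42.0, no filter, no TMM, each replicate left out, other cell filters and cell naming, and other sums.

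All 9 genes are named in the CM-like comparisons, with 5 receptors and partners between stages and only Ppara and Ppargc1a in the knockdown. For the other classes only some of the 9 genes are given by name. Of each list up to 3 genes per direction with the smallest p among non-overlapping calls are named, or else the genes of highest level. Tested on simulated data, the stage fit called 26% of genes changed by 2 on the log2 scale and 70% of those changed by 4 for P14 against P4 (14796 genes), and the knockdown fit without the block 4.08% of genes changed by 1, 62% of those changed by 2 and 79.6% of those changed by 4 (16877 genes). A few genes of these lists are not reported here.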

Additional observations from a re-analysis of the deposited data

Results flagged for a closer look

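In groups of 4 sums, a value was flagged where its gap to the nearest other was too large a part of the range by Dixon's 95% criterion, which chance does for about 1 in 20 groups; 18 groups were tested. Only endothelial-like and macrophage-like cells at P28 had 4 sums, so no other class or stage could be examined. In endothelial-like cells of P28 replicate 6, Pdk4 was at 58.1 CPM (2.04 to 10.6 in the other 3 sums), Acot1 at 19.8 (0.29 to 2.57), Angptl4 at 64.9 (0.583 to 8.997) and Cpt1b, a single UMI, at 0.62 (0 in the others). In endothelial-like cells of P28 replicate 1, a sum of 38 cells from a chip with 940 CM-like cells, Ucp3 was at 4.53 CPM (0 to 0.43 in the others), Klf15 at 13.6 (0.29 to 2.47) and Cpt1a, at 4.53, below the 17.8 to 20.1 of the others. In macrophage-like cells Plin5 was at 19.1 CPM in P28 replicate 1 (0 to 1.27) and Cpt1b, with 2 UMIs, at 1.14 in replicate 6 (0 in the others). Where the other 3 sums are at 0 any UMI is flagged. CM markers summed to 13829 CPM in endothelial-like and 15971 in macrophage-like cells of replicate 1, against at most 1617 in the other P28 sums of both classes; their part in these values was not tested.

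Acot2 differed in direction between classes. From P4 to P14 the log2 difference was 1.16 in CM-like cells, where both P14 sums were above both P4 sums. In macrophage-like cells it was -2.40 ± 1.57 (adjusted p = 0.485, edgeR), with 3.29 and 4.32 CPM at P14 and 14.2 and 26.1 at P4. CM markers summed in these macrophage-like cells to 5254 and 2592 CPM at P14 and 12588 and 15993 at P4, and their part was not tested. The difference between the classes was not tested.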

How the results depend on the processing

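Calls over all genes moved with the processing, while the members' median in CM-like cells kept its sign. In other classes it turned without P14 replicate 1, from 0.88 to -0.15 in endothelial-like cells against P4 and from 0.99 to -0.43 in fibroblast-like cells against P28, and in macrophage-like cells against P28, at 0.04, it took both signs. Of P14 against P4 in CM-like cells, the 532 genes called (14 pathway genes) became 1206 (28) with DESeq2, 959 (22) without a filter on low counts, 1322 (8) with totals in place of TMM, 289 in a fit of the 2 stages alone, 93 (1) with CM-like called cell by cell, 353 (8) at 1000 genes per cell, 281 (9) with at most 5000 UMIs of any cell, 160 (2) with sums of at least 10 cells and 242 (8) without the atrial P4 cluster, a setting chosen after seeing the data. The members' median of 0.96 became 0.20 with totals and 1.63 cell by cell. Of P14 against P28, the 5 genes called (0 pathway genes) became 113 (4) with DESeq2, 141 (4) without a filter, 20 with totals, 0 in the fit of 2 stages, 1 cell by cell, 3 at 1000 genes, 9 (2) at 5000 UMIs, 2 with sums per named animal, 0 with sums of at least 10 cells and 0 without the atrial cluster; the median of 2.15 became 1.55 with totals. For shJun against shNT, 0 became 67 (1) with DESeq2, 481 (1) without a filter, 92 with the replicate block and 94 (1) with the chip block. With the replicate block, Pdk4 (adjusted p = 0.0167, edgeR) and Jun (0.0219) passed, and the other 8 of the 9 genes did not. Without a filter, Pdk4 (adjusted p = 0.0179) and Acot1 (0.0228) passed without the block.

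DESeq2 and no filter gave 469 and 252 calls in endothelial-like cells against P4 and 327 and 232 against P28, 1067 and 590, and 794 and 393, in fibroblast-like cells, and 525 and 182, and 97 and 51, in macrophage-like cells. The cause was not tested.

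Leaving out 1 replicate, calls of P14 against P4 ranged from 38 to 605 (pathway 0 to 13, members' median 0.50 to 1.78), of P14 against P28 from 1 to 25 (pathway 0 to 1, median 1.93 to 2.43) and of the knockdown from 0 to 314 (pathway 0 to 3). Calls against P4 ranged from 16 to 72 in endothelial-like, 59 to 1238 in fibroblast-like and 13 to 58 in macrophage-like cells, and against P28 from 1 to 198, 39 to 948 and 0 to 23. P14 replicate 1 set the upper ends in fibroblast-like cells, and P4 replicates 1 and 2 the 38 and 88 calls in CM-like cells. Where a group is left with 1 sum, that sum is assumed to vary like the others.

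Depth limits Cpt1b (0 UMIs at P14, where 3 would be 1.01 and 1.32 CPM), Klf15 at P4 and P7 and Angptl4 in P14 replicate 2 (8 UMIs). The P7 level rests on 23 cells.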
